A study of Mus musculus with 19 samples.

Results

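The insulin-like growth factor (IGF) axis was followed through 10 genes: the ligand gene Igf1, the receptor genes Igf1r, Igf2r and Ghr, the binding protein genes Igfbp1, Igfbp2, Igfbp3 and Igfbp4, the acid-labile subunit gene Igfals and the adaptor gene Irs2. They were taken by symbol from a table of 13549 genes of embryonic liver and by Ensembl ID from files of 17606 genes of tumours, and all 10 were found in both. RNA had been sequenced from livers of mouse embryos at embryonic day 18.5 and from subcutaneous tumours of the mouse cell line FL8. In the embryos, 4 livers (numbered 6 to 9) carried Rosa26 LSL-DNAJB1-PKA-GFP together with Alb-Cre, so that Cre made under the Albumin promoter switched on the DNAJB1-PKA fusion, the kinase fusion of human fibrolamellar carcinoma, with a GFP reporter. The other 5 livers (numbered 1 to 5) are labelled only as control, and which of the alleles they carried is not given. The tumours grew from FL8 cells, a single line whose genotype the labels do not give, in capsules of gelatin placed subcutaneously in NSG mice, whose immunodeficient background lacks lymphocytes and natural killer cells but keeps macrophages. After randomization at a mean size of 75 mm3, mice received oral vehicle (5 tumours) or the CDK4/6 inhibitor palbociclib at 75 mg/kg (5 tumours), for 3 days with 4 days off. The vehicle is methocel in the sample labels and PBS in the series text. Separate animals are not stated for each library, so p-values measure the spread between these samples.

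The liver is the main source of circulating IGF-1, which it makes in response to growth hormone acting through GHR, JAK2 and STAT5. IGF-1 and IGF-2 signal through IGF1R and the adaptors IRS1 and IRS2 to PI3K and AKT, while IGF2R takes up IGF-2 for degradation. In plasma the IGFs are held by binding proteins, largely in a ternary complex of IGFBP-3 or IGFBP-5 with the acid-labile subunit. IGFBP-1 is a hepatocyte product that insulin represses, through loss of FoxO1 from an insulin response element in its promoter, and that cAMP and glucocorticoids raise. Before birth the growth hormone arm is weak, and IGF-2 is the prevailing ligand.

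The promoter windows of 4 members are shown because the results turn on them (Igf1 and Igfbp1 rose in the fusion livers) or because they held a motif of the pathways above (Igfbp1, Irs2 and Igfals). The sequences are RefSeq's on GRCm38.p6, from 250 bases before to 50 after a start given in RefSeq, read along the gene's strand. Such a start need not be the outermost one of the gene. The Igf1 and Igfals windows lie inside the GENCODE gene spans, which begin at chr10:87858265 and chr17:24865997, and those outer starts were not searched. Capitals mark a match to CAAAACA, the core of the insulin response element (TGTTTTG where it lies on the other strand), in Igfbp1 and Irs2, and a match to TTCNNNGAA, the STAT site, in Igfals. The Igf1 window held no match to any motif searched.
Igfbp1, chr11:7197537-7197836, plus strand: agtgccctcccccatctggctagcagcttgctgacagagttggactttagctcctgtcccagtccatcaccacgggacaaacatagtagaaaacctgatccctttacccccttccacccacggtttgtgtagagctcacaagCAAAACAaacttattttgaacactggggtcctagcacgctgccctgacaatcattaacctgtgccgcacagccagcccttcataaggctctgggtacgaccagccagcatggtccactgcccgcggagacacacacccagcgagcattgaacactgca
Igf1, chr10:87860861-87861160, plus strand: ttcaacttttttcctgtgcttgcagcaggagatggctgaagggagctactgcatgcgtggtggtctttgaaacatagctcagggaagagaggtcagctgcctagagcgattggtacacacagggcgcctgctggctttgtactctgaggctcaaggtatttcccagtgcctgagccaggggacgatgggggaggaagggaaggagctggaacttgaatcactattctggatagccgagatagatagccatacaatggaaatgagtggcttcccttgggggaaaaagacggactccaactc
Irs2, chr8:11008880-11009179, minus strand: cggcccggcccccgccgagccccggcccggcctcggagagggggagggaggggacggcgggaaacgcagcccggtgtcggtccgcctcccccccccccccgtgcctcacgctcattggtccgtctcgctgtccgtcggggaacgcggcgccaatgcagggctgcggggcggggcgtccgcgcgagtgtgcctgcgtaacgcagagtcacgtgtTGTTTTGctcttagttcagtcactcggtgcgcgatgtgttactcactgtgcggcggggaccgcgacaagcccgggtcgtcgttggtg
Igfals, chr17:24877981-24878280, plus strand: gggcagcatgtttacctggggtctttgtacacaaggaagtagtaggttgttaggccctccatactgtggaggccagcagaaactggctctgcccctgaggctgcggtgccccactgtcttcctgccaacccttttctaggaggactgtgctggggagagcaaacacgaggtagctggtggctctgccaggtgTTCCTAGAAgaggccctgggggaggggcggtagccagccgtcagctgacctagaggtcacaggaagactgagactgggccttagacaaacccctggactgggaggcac

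All 10 members matched a RefSeq window, with 14 windows in all, since Igfals, Igfbp2 and Ghr have more than one start. Both strands of 32851 mouse windows of the same length were searched for 5 motifs. CAAAACA occurred in 6.28% of all windows and in those of Igfbp1, 108 bases before the start, and Irs2, 37 bases before it. TTCNNNGAA occurred in 8.3% of windows and in 2 Igfals windows, the one shown at 58 bases before the start. The full cAMP response element TGACGTCA occurred in 1.79% of windows and in no member's window. The shorter TGACG, which the full element contains, occurred in 20.8% of windows and in those of Igf2r and Igfals. GTAAACA, the forkhead core, occurred in 3.65% of windows and in 1 of Igfals. These matches describe the letters in the windows only.

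Library totals were 7660736 to 23144891 counts in the control livers, 13527381 to 45591301 in the fusion livers, 2955729 to 33863983 reads in the vehicle tumours and 24857723 to 43141761 in the palbociclib tumours. Hepatocyte markers were high throughout, with 7 of 8 genes summing to 70762 to 134123 CPM (counts scaled to a library total of 1000000) in the embryos and 39533 to 126752 in the tumours. Afp and Dlk1, markers of fetal hepatocytes, summed to between 39857 and 94258 CPM in the embryos and between 94.8 and 438 in the tumours. The partner genes of the fusion were looked at as a check of the embryo labels: mouse Prkaca rose from 42.7 to 73 CPM (log2 fold change 0.78 ± 0.22 SE, edgeR adjusted p = 0.0379) and Dnajb1 from 46.9 to 63.0 CPM (0.42 ± 0.13, edgeR adjusted p = 0.0493). These calls were lost when any of 6 and 7 of the 9 libraries, in that order, was left out. Dnajb1 in fusion 9, at 51.7 CPM, lay within the control range of 41.7 to 52.9, and Prkaca in fusion 8 and 9, at 53.8 and 52, lay just above the highest control, at 50.5. The Prkaca log2 fold change was 0.49 without fusion 6 and 0.19 (edgeR adjusted p = 0.367) in control 1 and 2 and fusion 8 and 9 alone. Of all counts, cytosolic ribosomal protein genes took 9.68% to 10.1% in 4 livers (control 1 and 2, fusion 8 and 9) and 6.16% to 7.85% in the remaining 5. By Xist, control 1 and 2 and fusion 6, 7 and 8 were female. In the tumours, vehicle 1 stood apart with 46.6% mitochondrial reads against 1.24% to 6.47% in the others, and vehicle 5 was the shallowest.

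In the embryonic livers 2 of 10 members changed with the fusion, and both rose. These were Igf1, at 1.69 times the control level, and Igfbp1, at 1.67 times. The other 8 did not pass the threshold, an adjusted p of 0.05 in edgeR's quasi-likelihood test over all 13316 genes tested. Of those genes 12.8% passed, 5.99% higher and 6.81% lower. At an unadjusted p under 0.05 there were 3 members, the third being Igfbp2, against 29.3% of genes. The median log2 fold change was 0.02 over the members and -0.01 over all genes tested.

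Igf1 (chr10:87858265-87937042, plus strand, GRCm38) encodes the growth-promoting hormone itself. Its level, in CPM after TMM scaling as for all embryo values, was 25.2, 27.0, 16.4, 20.4 and 19.9 in controls 1 to 5 and 35.1, 36.1, 47.3 and 28.3 in fusion 6 to 9. Every fusion liver lay above every control, the lowest of them by little, and fusion 8 was highest. Groups that did not overlap were seen for 16.5% of all genes tested. Within each group the livers that were female by Xist (control 1 and 2, fusion 6, 7 and 8) lay above the male ones. The log2 fold change was 0.76 ± 0.18 (SE; 21.8 ± 4.3 CPM, SD, n = 5, against 36.7 ± 7.9, n = 4; edgeR adjusted p = 0.0175). Without fusion 8 it was 0.62, with an edgeR adjusted p of 0.0529. With sex as a term in the fit, in which 9.74% of genes passed, it was 0.59 (edgeR adjusted p = 0.0237). Igf1os overlaps the gene on the other strand, and whether the counting used strand is not given in the sources used here.

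Igfbp1 (chr11:7197782-7202546, plus strand) encodes the binding protein whose level in plasma follows insulin and fasting. Controls 1 to 5 had 1207, 1314, 1517, 856 and 1168 CPM and fusion 6 to 9 had 1786, 1836, 2645 and 1838 CPM. Again the groups did not overlap, as for 16.5% of all genes tested, and fusion 8 stood above 3 fusion livers that lay close together. The log2 fold change was 0.74 ± 0.19 (1212 ± 241 CPM against 2026 ± 413, SD; edgeR adjusted p = 0.0284). This call was lost on leaving out control 1, 4 or 5 or fusion 7 or 8, with an edgeR adjusted p of up to 0.0842 and a log2 fold change of 0.59 without fusion 8. With sex as a term in the fit, in which 9.74% of genes passed, the log2 fold change was 0.70 and the edgeR adjusted p 0.0629. DESeq2 called the same 2 members, among 18.4% of genes.

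**Figure D1:**
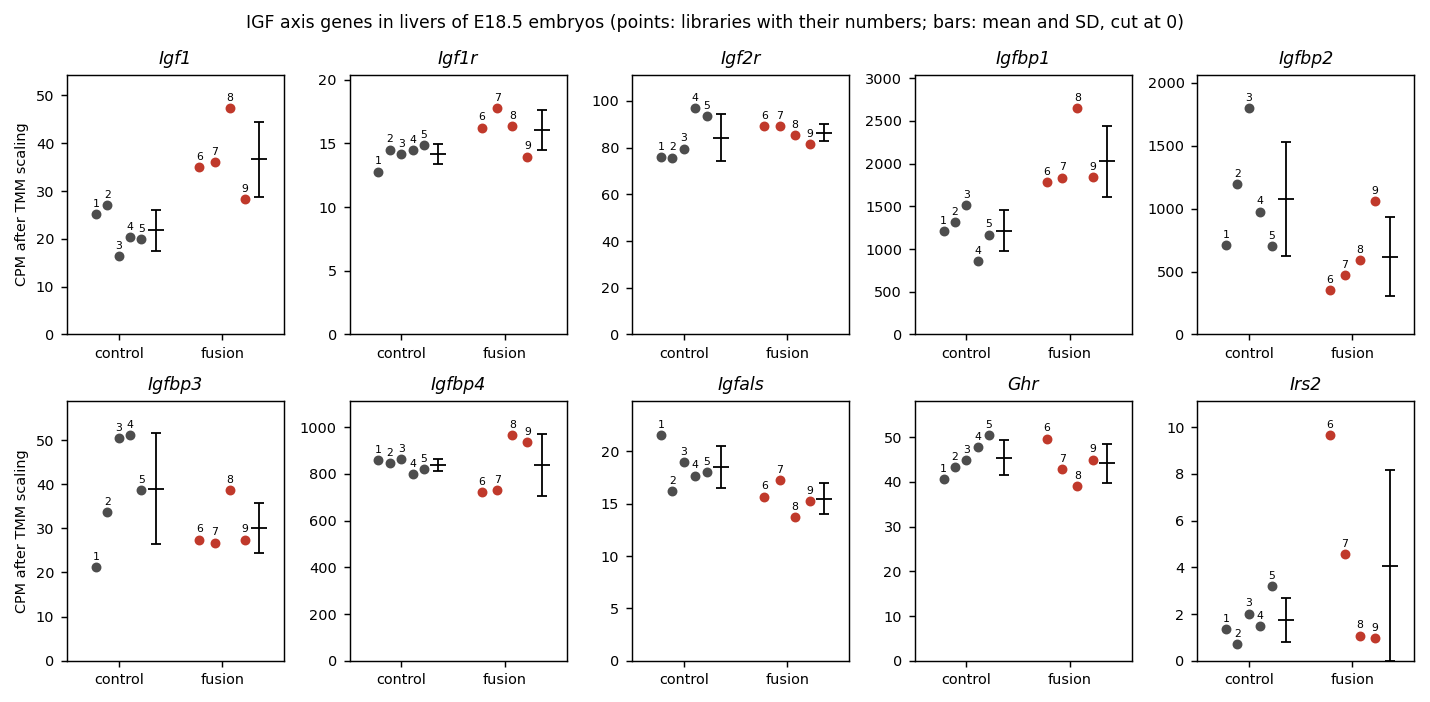
CPM after TMM scaling (y axes, from 0) of the 10 members in the embryonic livers, with 1 point per library labelled by its number and the mean and SD of each group beside it. Igf1 and Igfbp1 are the 2 of 10 members whose fusion livers all lie above the controls, from 28.3 and 1786 CPM in that order. Over all genes tested the groups did not overlap, in either direction, for 16.5%. Irs2 is high in fusion 6 and 7 only.

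Igfbp2 (chr1:72824503-72852474, plus strand), the main binding protein of the fetal circulation beside IGFBP-1, varied widely among the controls. It was at 713, 1193, 1797, 976 and 702 CPM in controls 1 to 5 and at 351, 469, 594 and 1062 in fusion 6 to 9. Fusion 6, 7 and 8 lay below every control and fusion 9 lay among them (log2 fold change -0.80 ± 0.35, edgeR adjusted p = 0.161). With fusion 9 left out the value was -1.19 and the edgeR adjusted p 0.0409.

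Igfbp3 (chr11:7206086-7213923, minus strand) lies tail to tail with Igfbp1, with 3539 bases between them, and encodes the binding protein of the ternary complex. Its 5 controls had 21.2, 33.6, 50.5, 51.2 and 38.7 CPM and fusion 6 to 9 had 27.5, 26.8, 38.6 and 27.4. The groups overlapped, with a log2 fold change of -0.38 ± 0.23 (edgeR adjusted p = 0.307). Igfals (chr17:24865997-24882010, plus strand), which encodes the third partner of that complex, ranged from 16.2 to 21.6 CPM in the controls and from 13.7 to 17.3 in the fusion livers (-0.26 ± 0.12, edgeR adjusted p = 0.182). Igfbp4 (chr11:99041244-99054392, plus strand), whose protein holds IGF until the protease PAPP-A cleaves it, was at 838 ± 131 CPM in the fusion livers (SD, n = 4) and 837 ± 27 in the controls (n = 5). Its log2 fold change was 0.00 ± 0.14 (edgeR adjusted p = 0.998), and fusion 8 and 9 lay above all controls and fusion 6 and 7 below them.

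None of the 3 receptor genes passed. Igf1r (chr7:67952827-68233668, plus strand) ranged from 12.8 to 14.8 CPM in the controls and from 14 to 17.7 in the fusion livers (log2 fold change 0.18 ± 0.11, edgeR adjusted p = 0.302). Igf2r (chr17:12682406-12769664, minus strand), an imprinted gene with the antisense Airn on its other strand, ranged from 75.7 to 96.8 and from 81.5 to 89.4 CPM (0.03 ± 0.12, edgeR adjusted p = 0.876). Ghr (chr15:3317760-3583492, minus strand) ranged from 40.7 to 50.5 and from 39.1 to 49.7 CPM (-0.04 ± 0.11, edgeR adjusted p = 0.84).

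Irs2 (chr8:10984681-11008458, minus strand), the hepatic insulin receptor substrate that FoxO factors and cAMP signalling are known to raise, was the member nearest to the detection limit. Controls 1 to 5 had 1.37, 0.697, 2.02, 1.48 and 3.19 CPM, from 5 to 73 counts. Fusion 6 and 7 had 9.68 and 4.57 CPM (464 and 77 counts), and fusion 8 and 9 had 1.07 and 0.958 (14 counts each). Hence 2 fusion livers lay above all controls and the other 2 within their range (log2 fold change 1.22 ± 0.61, edgeR adjusted p = 0.207), and leaving out fusion 6 brought the value to 0.30. The transcript 9530052E02Rik overlaps Irs2 on the other strand.

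Fusion 6 and 7, the livers with high Irs2, also differed from fusion 8 and 9 in their ribosomal protein share. Among the 5 livers of the lower share (control 3, 4 and 5, fusion 6 and 7) 4 members passed the threshold, against 21.8% of genes: Igf1 (log2 fold change 0.91, edgeR adjusted p = 0.000849), Igfbp2 (-1.50, 0.0142), Igfbp3 (-0.79, 0.00455) and Irs2 (1.73, 0.00872). Igfbp1 was at 0.62 there (edgeR adjusted p = 0.0596). Among the 4 livers of the higher share (control 1 and 2, fusion 8 and 9) 1 member passed, against 20% of genes, namely Igfbp1 (0.84, edgeR adjusted p = 0.014). There Igf1 was at 0.54 (edgeR adjusted p = 0.0961), Igfbp2 at -0.19 (0.657), Igfbp3 at 0.30 (0.364) and Irs2 at -0.14 (0.851). With the share as a term in a fit of all 9 livers, 4 members passed (Igf1, Igfbp1, Igfbp2 at -0.90 and Irs2 at 1.25), against 32.7% of genes. The difference between the 2 sets of livers itself did not pass for any member: it was 1.08 ± 0.29 for Igfbp3 (edgeR adjusted p = 0.114), -1.89 ± 0.70 for Irs2 (0.204) and 1.29 ± 0.52 for Igfbp2 (0.233), in a test that 25 of 13509 genes (0.185%) passed. In the lower-share set the 3 controls were male and both fusion livers female, so that sex and genotype cannot be told apart in it.

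**Figure D2:**
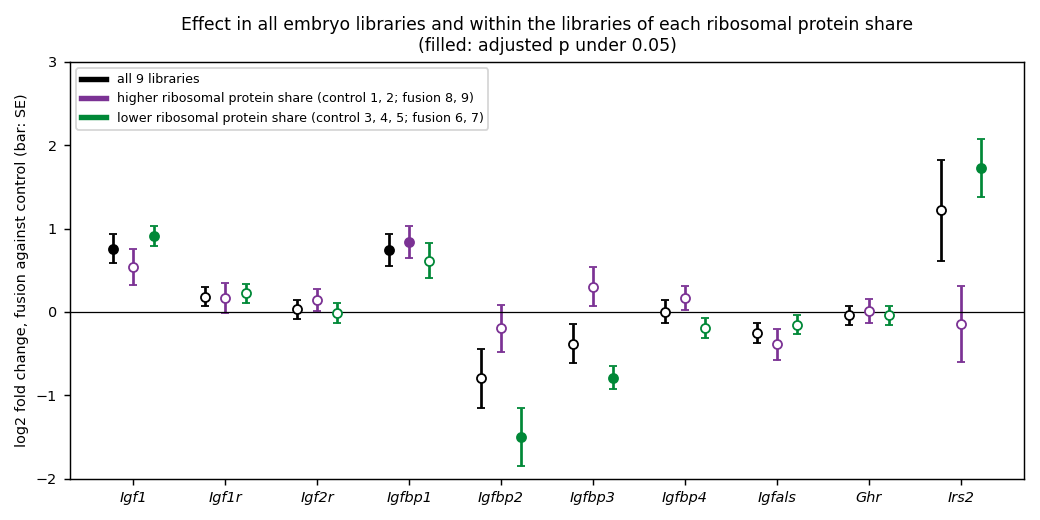
Log2 fold change of each member, fusion against control (y axis, bars SE), in all 9 livers and within the livers of the higher and of the lower ribosomal protein share. Igf1 and Igfbp1 lie above 0 in all 3 fits, between 0.54 and 0.91, while Igfbp3 and Irs2 take opposite signs in the 2 sets.

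Summed levels of 4 lists of cell type markers did not overlap between the genotypes and were not tested. The groups did not overlap for 16.5% of single genes, a share not computed for sums, which follow their most abundant genes. Afp and Dlk1 summed to 39857 to 50806 CPM in the controls and 70337 to 94258 in the fusion livers. The 7 macrophage markers summed to 605 to 713 and 509 to 563 CPM, the 5 cholangiocyte markers to 49.9 to 73.8 and 11.4 to 41.4, and the 10 markers of fibroblasts and stellate cells to 426 to 595 and 323 to 406. The groups overlapped for the 7 hepatocyte markers found, at 87299 to 134123 and 70762 to 123022 CPM, for the 7 endothelial markers, at 182 to 207 and 177 to 263, and for 5 of 9 erythroid markers found, at 1653 to 2598 and 1848 to 2452. They also overlapped for 3 of 6 skeletal muscle markers found, at 6.07 to 10.4 and 7.66 to 10.9 CPM. For 2 of 4 keratinocyte markers found, the overlapping ranges were 2.44 to 3.04 and 1.92 to 2.87 CPM. No gene of the 4 lists that did not overlap was at or under 3 counts in every liver. The part of these cell types in the Igf1, Igfbp1 and Igfbp2 values was not tested, and in bulk RNA fewer cells of a type cannot be told apart from less RNA per cell.

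Levels compared between genes per kilobase of exon put Igfbp1, Igfbp2 and Igfbp4 far above the rest. In the control livers the mean CPM per kilobase was 795 for Igfbp1, 583 for Igfbp2 and 190 for Igfbp4, then 12.5 for Igfbp3, 9.06 for Igf2r, 5.83 for Igfals, 5.02 for Ghr, 2.20 for Igf1, 0.843 for Igf1r and 0.277 for Irs2. Neighbours in this order had overlapping ranges for Igfbp1 and Igfbp2, Igfbp3 and Igf2r, and Igfals and Ghr. Within libraries, Igfbp1 lay above Igfbp2 and Igfals above Ghr in all 5 controls, and Igfbp3 above Igf2r in 4 of 5. In the fusion livers Igfbp1 stood at 1329 and Igfbp2 at 335 CPM per kilobase, and their ranges no longer overlapped. Igfbp1 was thus above Igfbp2 in all 4 fusion livers, as in the controls. Igf1 there, at 3.70, had a range overlapping that of Ghr, at 4.88.

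Other genes of the axis were counted in 4 lists of 48 genes. The shares of all genes that passed, 12.8% in all, 5.99% higher and 6.81% lower, stand beside the counts that follow. Among 10 genes of growth hormone receptor signalling 1 passed (against 6.81% of genes lower), Socs2, the STAT5 target that dampens the receptor, which fell from 36.6 to 23.7 CPM (log2 fold change -0.62 ± 0.17, edgeR adjusted p = 0.0328). Among 9 other ligands, receptors and adaptors 1 rose and 4 fell, against 5.99% and 6.81% of genes. Irs1, the sister adaptor of Irs2, rose from 12.5 to 19.8 CPM (0.67 ± 0.13, edgeR adjusted p = 0.00689). Grb10, an imprinted adaptor that inhibits the insulin and IGF-1 receptors, fell from 1583 to 679 CPM (-1.22 ± 0.30, 0.0226), and Insr, the insulin receptor, fell from 86.8 to 58.2 CPM (-0.58 ± 0.14, 0.0245). Gigyf1, a partner of GRB10, had a log2 fold change of -0.68 (0.0203), and Grb14, a second inhibitory adaptor, of -0.65 (0.0257). Igf2, the fetal ligand, was at 798 to 1967 CPM in the controls and 1111 to 3402 in the fusion livers (0.41 ± 0.36, edgeR adjusted p = 0.485). Its log2 fold change was 0.04 without fusion 6, 0.45 with the ribosomal protein share as a term (edgeR adjusted p = 0.0272) and 0.62 within the lower share (0.0324), so that these 2 fits called it. Grb14 and Igf2 were named after their values were seen.

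Among 10 other binding proteins, proteases and related genes 1 rose and 2 fell, against the same 5.99% and 6.81%. Pappa, whose product is the protease that frees IGF from IGFBP-4, had 3, 0, 8, 5 and 3 counts in controls 1 to 5 and 214, 25, 37 and 20 in fusion 6 to 9. The groups were far apart at 0.178 and 2.54 CPM (log2 fold change 3.66 ± 0.50, edgeR adjusted p = 0.00135), the size being uncertain at such control counts. Igfbp6, which prefers IGF-2, fell from 6.47 to 3.10 CPM (-1.06 ± 0.21, edgeR adjusted p = 0.00904). Htra1, a secreted protease, fell from 0.871 to 0.309 CPM (-1.55 ± 0.31, edgeR adjusted p = 0.0091). Controls 1 to 5 had 10, 4, 23, 24 and 26 counts of it and fusion 6 to 9 had 14, 5, 4 and 5. The size of this change is likewise uncertain at such counts, and Fgfr2 overlaps Htra1 on the other strand. None of 17 genes of PI3K, AKT, mTOR and FoxO signalling passed in the edgeR fit of all 9 livers with no covariate, and 5 had an unadjusted p under 0.05, against 29.3% of genes. Nearest were Foxo1, the factor that insulin holds out of the nucleus, at a log2 fold change of -0.43 (edgeR adjusted p = 0.062) and Pik3r1, a regulatory subunit of PI3K, at 0.43 (0.084). Foxo1 passed with DESeq2 (-0.42, adjusted p = 0.0409) and in edgeR with the ribosomal protein share as a term (-0.42, 0.0141), with sex as a term (-0.52, 0.0233), within the higher share (-0.74, 0.00934) and without control 4 (-0.50, 0.0443). Pik3r1 passed in edgeR with the share as a term (0.46, 0.0072) and within the lower share (0.51, 0.0317). Calls of Irs1, Pappa and Igfbp6 stood whichever library was left out. Htra1 was tested in 5 of the 9 fits with a library left out and passed in those 5, with an edgeR adjusted p of up to 0.0381. In the other fits it fell under the filter on low counts, which it met through the controls, where it was higher. The 5 fits therefore cannot show whether its call would stand whichever library was left out. Calls of Socs2 and Grb14 were lost without any of 6 libraries, and that of Insr without any of 5. Grb10 and Gigyf1 lost theirs without any of 3. Fusion 8 was among the libraries each time, with edgeR adjusted p up to 0.0802. Over 7 other settings, calls of Irs1, Insr, Gigyf1 and Socs2 were each lost in 1 and that of Grb14 in 2. The highest edgeR or DESeq2 adjusted p was 0.064 for Irs1, 0.106 for Insr, 0.0646 for Gigyf1, 0.0562 for Socs2 and 0.237 for Grb14. Pappa, Igfbp6 and Grb10 passed in all 7, and Htra1 in the 6 that tested it.

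**Figure D3:**
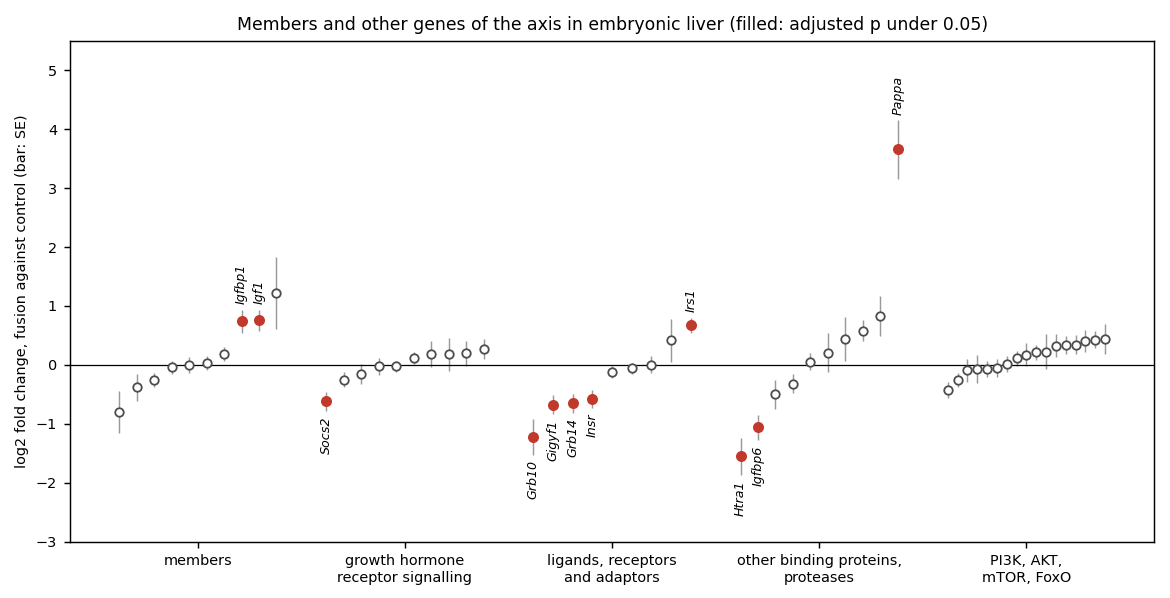
Log2 fold change, fusion against control (y axis, bars SE), of the members and of the other genes of the axis tested in the embryonic livers, ordered by value within each list. Filled points passed an adjusted p of 0.05; Pappa is highest at 3.66 and Htra1 lowest at -1.55, and none of the 17 PI3K, AKT, mTOR and FoxO genes is filled in this fit without covariates.

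Likeness of pattern was measured over the 9 livers as Pearson's r of log2 values after each group's mean was taken out. Igf1 was most like Kcne3 (r = 0.95), Oxct1, Sgol1, Aldh4a1 and Asb11 (0.93), and Igfbp1 most like Ninj1 (0.98), Arhgap6, Zfp36, Slc16a9 and Bri3bp (0.92). Igf1 and Igfbp1 had an r of 0.28 with each other. These are the highest of all genes tested in libraries that share their depth and preparation, and are given as a description.

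In the FL8 tumours no member passed with palbociclib, and neither did any of 12829 genes tested (0%) with limma on log2(CPM + 1). At an unadjusted p under 0.05 limma had 586 genes (4.57%) and 1 member, Ghr. On the reads recovered from the CPM, edgeR called 0 genes and DESeq2 called 8 (0.0468%), none of them a member. All adjusted p-values of the 9 members tested lay between 0.953 and 0.964. The median log2 fold change was 0.37 over these 9 and 0.14 over all genes tested, and 0.23 and 0.01 after TMM scaling, so that values on the CPM scale are to be read against that shift. Of the 9 members 7 lay above 0, as did 68.8% of genes. The 2 groups overlapped for each of the 9 members, whereas 0.935% of all genes tested had groups that did not overlap.

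Ghr, the growth hormone receptor, had 24.1, 96.8, 71, 38.7 and 85.3 CPM in vehicle 1 to 5 and 137, 91.7, 106, 98.4 and 64.2 in palbociclib 1 to 5. On this deposited scale vehicle 1 was lowest and vehicle 4 next, 3 palbociclib tumours lay above all vehicle tumours, and the groups overlapped. The log2 fold change was 0.78 ± 0.34 (limma unadjusted p = 0.0376, adjusted p = 0.953), and it was 0.48 without vehicle 1 and 0.63 after TMM scaling.

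Igf1 varied widely within both groups. It was at 56.5, 11.6, 10.5, 13 and 3.72 CPM in vehicle 1 to 5 and at 5.22, 26.1, 32.4, 36.0 and 19.1 in palbociclib 1 to 5. Vehicle 1 was the highest tumour of all, and the other 4 vehicle tumours lay below 4 of the 5 palbociclib tumours. The log2 fold change was 0.59 ± 0.56 (limma adjusted p = 0.953), 1.09 without vehicle 1 and, by edgeR on the reads, -0.16. Macrophage markers, 6 of 7 genes found, summed to 350.5 CPM in vehicle 1, whereas vehicle 2 to 5 had 6.09 to 32.9 CPM and the palbociclib tumours 19.8 to 60.8. Their part in the Igf1 values was not tested.

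Igfbp1 was abundant in every tumour, at 3352, 10308, 8221, 8427 and 8085 CPM with vehicle and at 8581, 8922, 7904, 10233 and 6741 with palbociclib. Vehicle 1, with the most mitochondrial reads, was the low one. The log2 fold change was 0.22 ± 0.40 (limma adjusted p = 0.964) and -0.05 without vehicle 1. Igfbp4, Igf2r and Igfals were lowest in the same tumour on the deposited CPM scale. Igfbp4 had 489 CPM there against 862 to 1128 in the other 9 (0.27 ± 0.27), Igf2r 48.2 against 110 to 210 (0.55 ± 0.30), and Igfals 7.97 against 24.4 to 38.7 (0.52 ± 0.34). Without vehicle 1 their log2 fold changes were 0.08, 0.24 and 0.16. With mitochondrial genes taken out of the totals, Igfbp4 was at 917 CPM in vehicle 1 and lower in vehicle 3, at 882, and Ghr was at 45.1 in vehicle 1 and 40.3 in vehicle 4. After TMM scaling Ghr was likewise lowest in vehicle 4, at 35.1 against 38.2 CPM in vehicle 1, whereas Igfbp1, Igf2r and Igfals were lowest in vehicle 1 on all 3 scales.

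Igfbp3 and Igfbp2 were the members whose fold changes lay below 0. Igfbp3 had 628, 1074, 655, 1099 and 732 CPM with vehicle and 1106, 242, 479, 360 and 702 with palbociclib. Thus 3 palbociclib tumours lay below all vehicle tumours and 1 above them (log2 fold change -0.69 ± 0.36, limma unadjusted p = 0.0735). Igfbp2 had 344, 964, 712, 565 and 383 CPM with vehicle and 175, 721, 498, 1067 and 176 with palbociclib, a wide spread in both groups (-0.42 ± 0.46). Both stayed below 0 in every alternative run.

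Irs2 ranged from 10.6 to 65.5 CPM with vehicle and from 17.6 to 50.5 with palbociclib (log2 fold change 0.37 ± 0.43). Without the outlying vehicle 1 and the shallow vehicle 5 it was -0.27. Igf1r, the receptor through which both IGFs signal, was close to undetected: vehicle 1 to 5 had 30, 27, 28, 6 and 0 reads and palbociclib 1 to 5 had 4, 18, 0, 10 and 0. Its mean was under 1 CPM, so it was not tested in the reported limma fit. The limma fit with no filter on low values and DESeq2 on the recovered reads included it and did not call it. The 0 in vehicle 5 allows up to 1.015 CPM, at or above the level of 3 of the other vehicle tumours, whereas those in palbociclib 3 and 5 allow 0.0823 and 0.121 CPM.

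**Figure D4:**
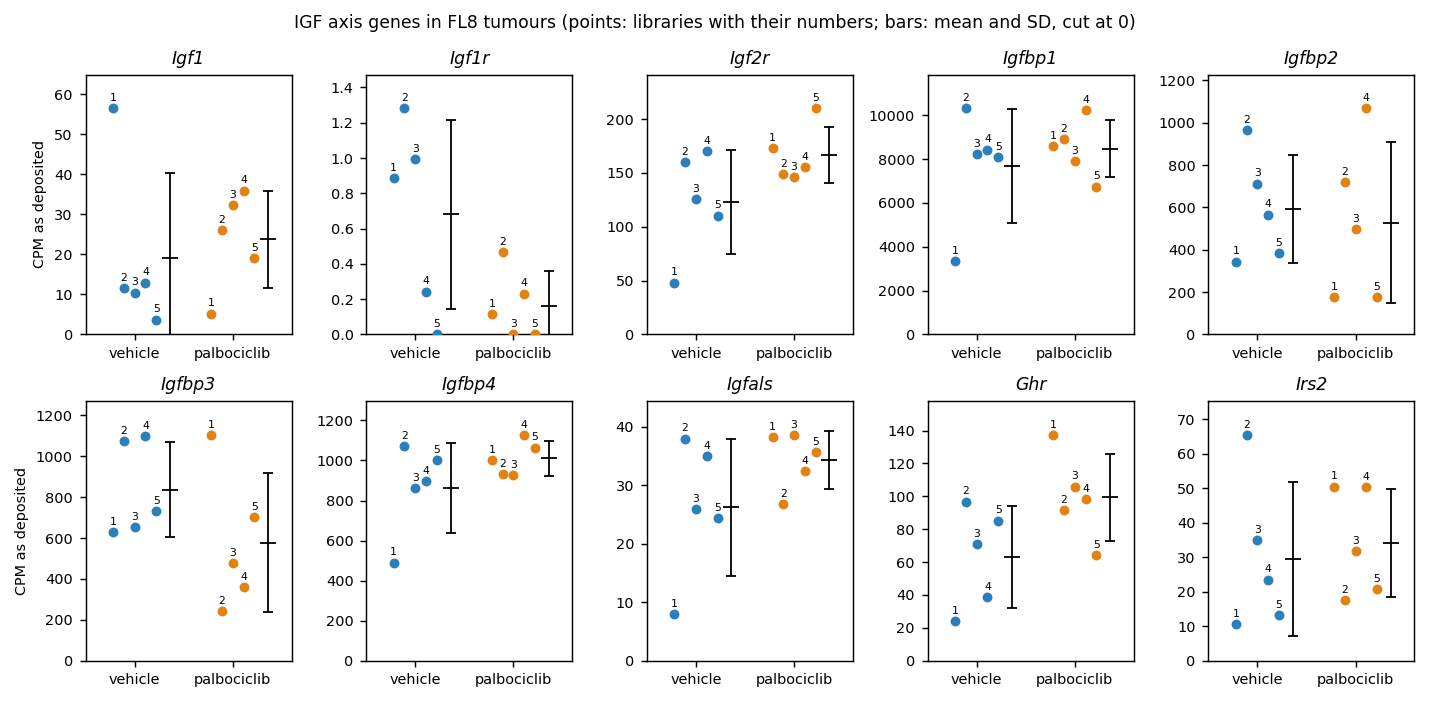
CPM as deposited (y axes, from 0) of the 10 members in the FL8 tumours, with 1 point per library labelled by its number and the mean and SD of each group beside it, cut at 0. The groups overlap for every member, and vehicle 1 is highest for Igf1 (56.5 CPM) and, on this scale, lowest for Igfbp1, Igfbp4, Igf2r, Igfals and Ghr.

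The order of levels per kilobase again had Igfbp1 first, at 5035 CPM per kilobase with vehicle and 5558 with palbociclib, with no overlap with the next gene. Igfbp2, Igfbp3 and Igfbp4 followed at 322, 268 and 196 with vehicle and at 286, 185 and 229 with palbociclib, overlapping each other in range. Next came Igf2r (13.2 and 17.9), Igfals (8.29 and 10.9), Ghr (6.98 and 11), Irs2 (4.68 and 5.41) and Igf1 (1.92 and 2.40), and Igf1r was last (0.0405 and 0.00968). This is the order with vehicle; with palbociclib Igfbp4 stood above Igfbp3 and Ghr just above Igfals, each pair with overlapping ranges. Set beside the control livers, Igfbp1 stood at 5035 against 795, Igfbp3 at 268 against 12.5, Irs2 at 4.68 against 0.277 and Igf1r at 0.0405 against 0.843 CPM per kilobase. Igfbp4 stood at 196 against 190 and Igf1 at 1.92 against 2.20. The 2 experiments were prepared and processed separately, so these levels are given without a test.

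No gene of the 4 other lists passed in the tumours with limma. At an unadjusted p under 0.05 there was, against 4.57% of genes, 1 of 9 other ligands, receptors and adaptors and 1 of 6 other binding proteins and proteases, and none of 10 growth hormone signalling genes or of 17 PI3K, AKT, mTOR and FoxO genes. Igf2, the prevailing ligand gene, had 2477, 12374, 9613, 14837 and 4014 CPM with vehicle and 11175, 25064, 17605, 32789 and 11444 with palbociclib. Vehicle 1 and 5 were low, 3 palbociclib tumours lay above all vehicle tumours, and the log2 fold change was 1.34 ± 0.55 (limma unadjusted p = 0.0264, adjusted p = 0.953). Without vehicle 1 and 5 it was 0.57. Htra1 was at a mean of 1.51 CPM with vehicle and 3.96 with palbociclib (1.14 ± 0.40, limma unadjusted p = 0.0113). The next genes of each list lay nearer to 0: Shc1 at 0.51, Prlr at 0.48, Ptpn6 at -0.44, Igfbp7 at -0.60, Pdpk1 at 0.39 and Akt2 at 0.37 on the log2(CPM + 1) scale.

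**Figure D5:**
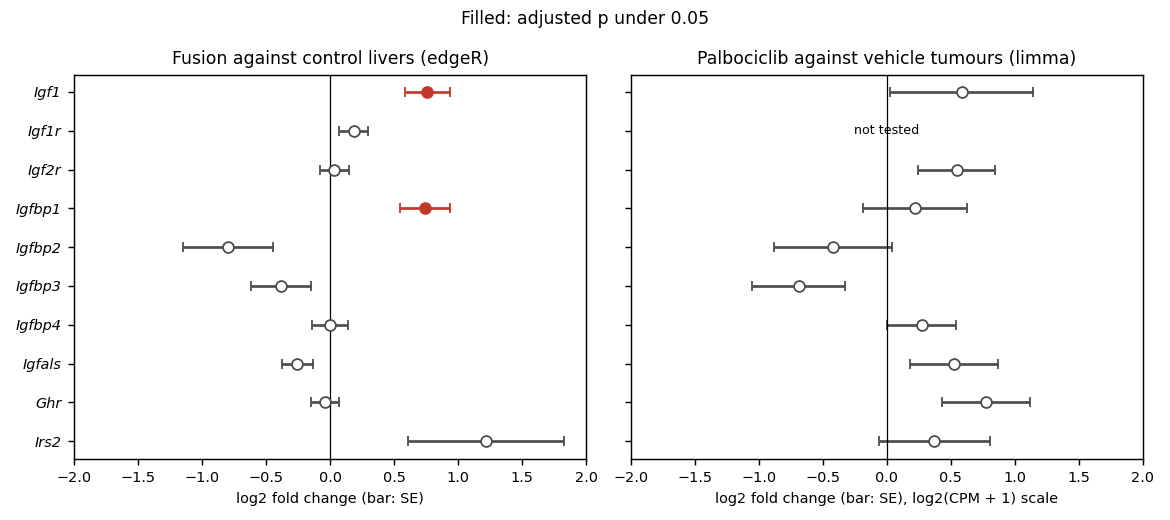
Log2 fold change (x axes, bars SE) of the members in the embryonic livers, fusion against control, and in the tumours, palbociclib against vehicle on the log2(CPM + 1) scale. Only Igf1 (0.76) and Igfbp1 (0.74) in the embryos passed an adjusted p of 0.05. For the members tested in both, the tumour bars are the wider ones except for Irs2 (SE 0.61 in the embryos and 0.43 in the tumours).

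Over the 10 tumours, with group means taken out, Igfbp1 was most like Eif1a (r = 0.99), Anpep, Epha1, Ppm1l and Gldc (0.97), and among the members it was most like Igfbp4 (0.91), Igfals (0.86), Igf2r (0.80) and Ghr (0.79). Igf1 was most like Col8a1 (0.96), Dram1, Ifitm1, Eps8 and Fuca2 (0.94), and its r with Ghr was -0.71. These coefficients are on the deposited CPM scale, on which vehicle 1 had the lowest values of Igfbp1, Igfbp4, Igfals, Igf2r and Ghr and the highest of Igf1, and are given as a description.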

How the data were processed

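For the embryos (poly-A RNA) the authors gave unnormalized counts by gene symbol, and for the tumours CPM by Ensembl gene, both per the file headers. Further columns of the embryo table hold the same counts rescaled and were set aside. The submitters' processing notes name STAR 2.5.1b and DESeq2 for the embryos, and cutadapt 2.10, HISAT2, featureCounts, DESeq2 and R 4.1.2 for the tumours, with mm10 for both. Strand setting and treatment of shared reads are not given in the sources used here. All tumour values (100%) were whole multiples of 1 read, within 0.01 read, so reads were recovered. The smallest count sum of a gene in the embryo table is 47, so rarer genes are not analysed here.

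Embryo counts were tested with edgeR 4.0.16 (TMM, filterByExpr, quasi-likelihood), and tumour values with limma 3.58.1 on log2(CPM + 1) for genes of at least 1 CPM on average, which understates changes of low genes. Both tests were two-sided, with Benjamini-Hochberg adjustment over all genes tested and a threshold of 0.05, in R 4.3.3. The scripts were tested on simulated data. DESeq2 1.42.0 was an alternative, with other scalings, filters, covariates and each library left out. Positions and exon lengths came from GENCODE M21, and promoter windows from RefSeq. The smallest embryo library, of 7660736 counts, resolves 0.392 CPM (3 counts), and such limits cover counting error only. Replicates differed by more than sampling noise (chi-square per degree of freedom at least 13).

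The members, lists and alternatives were chosen with earlier results of these data known. Other genes were named where they passed, up to 4 per list in order of p, or as the 2 of smallest p in a list where none passed.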

Additional observations from a re-analysis of the deposited data

Results flagged for a closer look

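In 6 of 86 groups of values screened, 1 library lay apart from the rest of its group by more than Dixon's 95% limit, which chance does in about 1 in 20 groups. In the fusion livers this was fusion 8 each time: Igfbp1 at 2645 CPM against 1786 to 1838 in the other 3, Igfbp3 at 38.6 CPM against 26.8 to 27.5, and Grb14 at 10.2 CPM against 12 in each of the others. Without fusion 8 the log2 fold changes were 0.59 for Igfbp1, -0.52 for Igfbp3 and -0.60 for Grb14. Among the vehicle tumours, vehicle 1 had Igf1 at 56.5 CPM against 3.72 to 13 and Ptpn6, a phosphatase gene expressed in blood cells, at 44.6 CPM against 8.12 to 11.5. Palbociclib 3 had Ptpn6 at 4.19 CPM against 10.7 to 12.4 in the other palbociclib tumours.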

How the results depend on the processing

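In the embryos 1704 genes passed in the reported fit, 4397 with the ribosomal protein split as a covariate, 2589 and 2950 within the livers of the higher and the lower share, and 969 to 1581 with 1 library left out. The members that passed numbered 4 with that covariate (Igf1, Igfbp1, Igfbp2 and Irs2), 1 with sex as a covariate (Igf1), 1 and 4 within the higher and the lower share, and 0 to 3 with 1 library left out, the 0 being without fusion 8. The within-split fits were added after the data were seen, as was leaving out vehicle 1 and 5 together. The cause of these shifts was not tested. Fold changes took the other sign as follows. Igf2r was at -0.01 within the lower share. Igfbp3 (reported at -0.38) was at 0.30 and Irs2 (reported at 1.22) at -0.14 within the higher share. Igfbp4 was at -0.03 with the split as a covariate, -0.02 without control 4, -0.07 without fusion 8, -0.05 without fusion 9 (-0.07 to 0.08 over the libraries left out) and -0.19 within the lower share. Ghr was at 0.01 with sex as a covariate, 0.02 without control 5, 0.02 without fusion 8 (-0.09 to 0.02 over the libraries left out) and 0.01 within the higher share. DESeq2, its size factors in edgeR and no filter on low counts left Igf1 and Igfbp1 as the 2 members that passed.

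In the tumours DESeq2 on the recovered reads called 8 genes, and every other setting called 0 genes and no setting called a member. Igf1 was at -0.16 by edgeR and at -0.16 by DESeq2 on the reads. Igfbp1 was at -0.05 without vehicle 1 (up to 0.35 over the others left out) and -0.09 without vehicle 1 and 5, where Irs2 was at -0.27. With the replicate number as a block 0 genes and 0 members passed, with 460 genes at an unadjusted p under 0.05 in limma. Same-numbered pairs of tumours correlated at -0.317 to 0.002, and no vehicle tumour correlated best with the palbociclib tumour of its own number. The palbociclib tumours were not checked in turn, and such correlations cannot settle whether the numbers mark a pairing. The embryos share no numbers between the groups. Depth limits Igf1r and vehicle 5, where 3 reads are 1.015 CPM.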
